A study of Bos taurus with 14 samples.

Results

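The length of the daily light period in dry cows, which are not milked in the weeks ahead of calving, was compared in mammary tissue as the difference between short days and long days that 2 biopsy days have in common. All 14 arrays of the series entered, 7 from short days (SD) and 7 from long days (LD), with the day of the biopsy as a block. The cows were Holstein, milking had stopped about 60 days ahead of the expected calving, and each cow was kept on SD (8 h of light, 16 h of dark) or LD (16 h of light, 8 h of dark) until calving. Biopsies at day -24 before calving gave 3 arrays per photoperiod and biopsies at day -9 gave 4 arrays per photoperiod. There was no untreated group, so LD served as the reference, and every difference below is SD minus LD on the log2 scale of the arrays. Each of 24016 probe sets (groups of probes for 1 transcript) was measured on every array, and 9222 of them, 38.4%, differed in the same direction at both days. Most probe sets thus did not share a direction between the days.

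Light reaches the gland through hormones. Long days shorten the nightly release of melatonin and raise circulating prolactin, and short days lower prolactin. In dry cows exposed to short days, the gland is known to express more prolactin receptor and the cow to give more milk after calving. Meanwhile the epithelium that will secrete milk is renewed, and leukocytes that cleared the old secretion are still present.

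Whether a cow biopsied at day -24 was biopsied again at day -9 is not given in the labels, nor whether arrays of a group come from separate cows. All p-values here treat the arrays as separate samples and measure only the spread between them, which may in part be technical. If cows were sampled at both days, the arrays are fewer independent samples than their number. In tissue of many cell types, fewer cells of a type and less RNA per cell cannot be told apart. The tissue carried its defining transcripts: the beta-casein gene CSN2 lay between 12.57 and 13.13 on the 14 arrays, and EPCAM, a surface protein of epithelium, between 10.45 and 11.14.

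Single arrays are named below by photoperiod, day and replicate number, so that LD24-1 is the LD array of replicate 1 at day -24. Some arrays stood apart. LD24-1 and SD9-1 lay far from the others on principal components, and they are called the outlying pair. LD9-4 and SD24-3, called the low pair, shared 280 probe sets that were at least 0.7 below every other array, and these arrays belong to opposite photoperiods at opposite days. Only 2 of the 280 probe sets, 0.714%, had the same sign at both days. The way they were picked nearly fixes this, as low values on SD24-3 and LD9-4 move the 2 days in opposite directions. Without the low pair 49.2% of probe sets had the same sign at both days, and without the outlying pair 46.5%. With each array weighted by how closely it followed the model of day and photoperiod, the share was 52.8%. Such weights favour a shared difference, since arrays that depart from it count for less. Array medians spanned 6.43 to 6.61. The 3-prime minus 5-prime signal of control transcripts, a sign of RNA breakdown, differed between SD and LD by 0.01 for GAPDH (exact permutation p = 0.949), -0.06 for actin (exact permutation p = 0.719) and 0.05 for EF1A (exact permutation p = 0.504).

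Across all probe sets the shared difference was small beside its error. The median size of the difference was 0.07, against a median standard error of 0.13. In limma, 0 probe sets (0%) passed a Benjamini-Hochberg adjusted p of 0.05. At an unadjusted p under 0.05 there were 504 probe sets (2.1%), 262 higher in SD (1.09%) and 242 lower (1.01%), where chance gives 1201. Of the 504, 497 had the same sign at both days, which a difference fitted over both days favours. Exact permutation of photoperiod within days over 1400 arrangements put 518 probe sets under 0.05 and 0 past the threshold after adjustment over all 24016. Leaving out LD24-1 raised the 504 to 1224, and the array weights raised it to 1552, in each case with 0 calls.

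Of 9222 probe sets of shared sign, 4959 were higher and 4263 lower in SD. The 2 days leaned in opposite directions as a whole. Over 9155 genes, each by its probe set of highest mean, the median difference was 0.04 at day -24 and -0.04 at day -9. Below 0 were 3671 of these genes at day -24 and 5520 at day -9. Large shared differences were few. At least 1 log2 unit at both days in the same direction was reached by 35 probe sets, 23 higher and 12 lower, and in opposite directions by 3. Of the 35, 11 are probe sets of the BOLA genes described further on. At the lower size of 0.5 the balance was the other way, with 118 probe sets in the same direction and 179 in opposite directions. The 118 became 222 without LD24-1 and 225 with array weights. The 179 became 316 without LD9-3, 90 without LD9-4, 70 without SD24-3 or the low pair and 42 with array weights. Without LD24-3 the 35 became 22. Leaving out 1 array at a time moved the 3 to between 0 (without SD24-3) and 14 (without LD9-3). In 17 probe sets (0.0708%) the SD arrays lay all above or all below the LD arrays of the same day at both days, 10 above and 7 below, and in 22 (0.0916%) the arrays separated at both days but in opposite directions. Photoperiods exchanged within days give the first kind by chance with a probability of 0.00143 per probe set. The share found is below that, so the 17 are no more than chance gives. In 12 probe sets (0.05%) all 7 SD arrays lay apart from all 7 LD arrays.

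**Figure D1:**
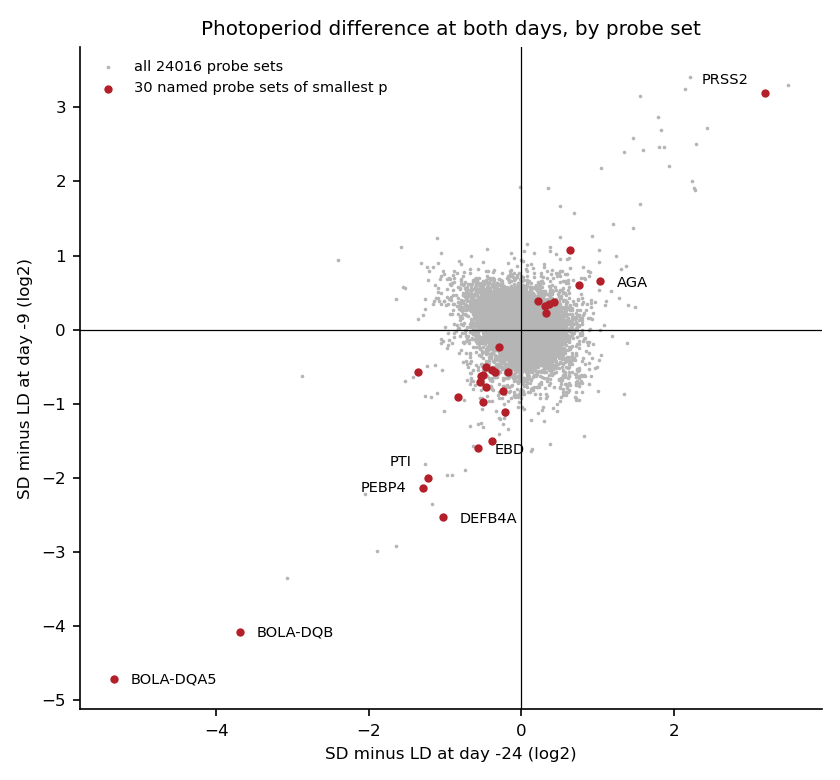
Difference between SD and LD in log2 units at day -24 (horizontal axis) and at day -9 (vertical axis), 1 grey point for each of 24016 probe sets and a red point for each of the 30 probe sets with 1 gene symbol of smallest p and the same sign at both days. Most points lie within 1 log2 unit of 0 in both directions, and the red points farthest out are PRSS2 at 3.2 on both days and BOLA-DQA5 at -5.34 and -4.72 and BOLA-DQB at -3.69 and -4.09.

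The gene nearest to a call encodes a lysosomal enzyme. AGA, aspartylglucosaminidase, removes the sugar-bound asparagine left when glycoproteins are digested. Its probe set read 8.69, 8.46 and 8.39 in SD and 7.20, 7.62 and 7.64 in LD at day -24, and 8.47, 8.46, 7.97 and 8.70 in SD and 7.71, 7.79, 7.66 and 7.78 in LD at day -9. Every SD array was above every LD array, and SD9-3 was the closest to LD. The difference was 0.82 (SE 0.12, 1.76-fold), 1.03 at day -24 and 0.66 at day -9, with a limma adjusted p of 0.103. Leaving out SD9-3 gave 0.91 and an adjusted p of 0.0111, the only call in any refit, while the adjusted p of AGA over the other alternatives ran from 0.0569 to 1. For AGA's other probe set the difference was 0.12, its 95% interval -0.23 to 0.47, with 0.31 at day -24 and -0.03 at day -9. The probe sets of this gene therefore disagree. This other probe set is the brighter on average, and it stands for AGA in the list below.

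Lysosomal genes were also counted as a list. Of 33 measured genes for lysosomal hydrolases and glycosidases, 4 were higher and 9 lower in SD at both days, and 20 differed in opposite directions. Over all 9155 measured genes, each by its probe set of highest mean, 18% were higher and 18.4% lower at both days, 36.4% in all. The lower count was 14 without SD24-3, 13 without the outlying pair and 17 with array weights, and the higher count stayed at 4 in these last refits. At an unadjusted p under 0.05 there was 1 gene, lower in SD, and there were 5, all lower, with array weights. Elsewhere the higher count was 9 without LD9-4 or SD9-4 and 7 without SD9-2 or SD9-3. CTSA, a protease that also protects other lysosomal enzymes, had the smallest p of the list. It lay at 8.86 to 9.48 in SD (median 9.23), against 9.23 to 9.90 in LD (median 9.55). The groups overlapped, with a difference of -0.32 (SE 0.11, exact permutation p = 0.00429). The cathepsin gene CTSL (0.32, 95% interval -0.12 to 0.76) and the peptidase gene TPP1 (0.16, 95% interval -0.05 to 0.36) leaned the other way.

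Besides AGA, 4 genes had SD arrays all above the LD arrays of their day at both days: ZNF184, RIOK3, KCNJ15 and ATMIN. Such separation fixes the exact permutation p at 0.00143, the smallest that 1400 arrangements can give, so that p adds nothing to the separation. In each of the 4 genes limma's adjusted p was 1. ZNF184, which encodes a zinc finger protein, read 6.20, 6.66 and 6.30 in SD against 5.80, 6.12 and 5.94 in LD at day -24. At day -9 it read 6.45, 6.34, 6.32 and 6.39 in SD against 6.19, 5.86, 5.96 and 5.99 in LD. The photoperiods did not overlap on the 14 arrays, and the difference was 0.40 (SE 0.09), alike at both days with 0.43 and 0.37.

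RIOK3, a kinase gene, lay at 7.85 to 8.47 in SD, against 7.54 to 7.98 in LD, a difference of 0.31 (SE 0.10). Its other probe sets differed by 0.01 and 0.13. ATMIN, a transcription factor gene of the response to DNA damage, lay at 9.19 to 9.37 in SD, against 8.95 to 9.28 in LD, a difference of 0.18 (SE 0.07), and its other probe sets differed by 0.16, 0.00 and 0.17. KCNJ15, a potassium channel gene, was dim: its arrays lay between 2.38 and 2.83, and the lower quartile of all probe set means was 4.55. Its difference was 0.19 (SE 0.07), and 0.45 in a second probe set. No gene with a single symbol had SD arrays all below the LD arrays of their day at both days.

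The other 12 probe sets without overlap at both days had no single symbol in the array annotation. Of these, 4 are given here, chosen after their values were seen. Bt.28593.1.S1_at differed by 0.53 (SE 0.08, limma adjusted p = 0.103), from 5.48 to 5.85 in SD and from 4.99 to 5.36 in LD. Bt.20352.1.S1_at differed by 0.96 (SE 0.17), from 4.31 to 4.98 in SD and from 3.04 to 4.13 in LD. On the lower side, Bt.14103.1.A1_at differed by -0.51 (SE 0.08, limma adjusted p = 0.103), from 8.57 to 8.97 in SD and from 9.17 to 9.45 in LD. Bt.13125.1.S1_at, which shares the first part of its name with the probe set of the defensin gene DEFB4A, differed by -2.37 (SE 0.43), from 5.21 to 7.39 in SD and from 7.50 to 10.80 in LD. A second probe set whose name starts like that of Bt.14103.1.A1_at differed by -0.52 (SE 0.11), from 6.76 to 7.42 in SD and from 7.39 to 7.87 in LD. For each of the 4 named probe sets all 7 SD arrays were on 1 side of all 7 LD arrays.

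**Figure D2:**
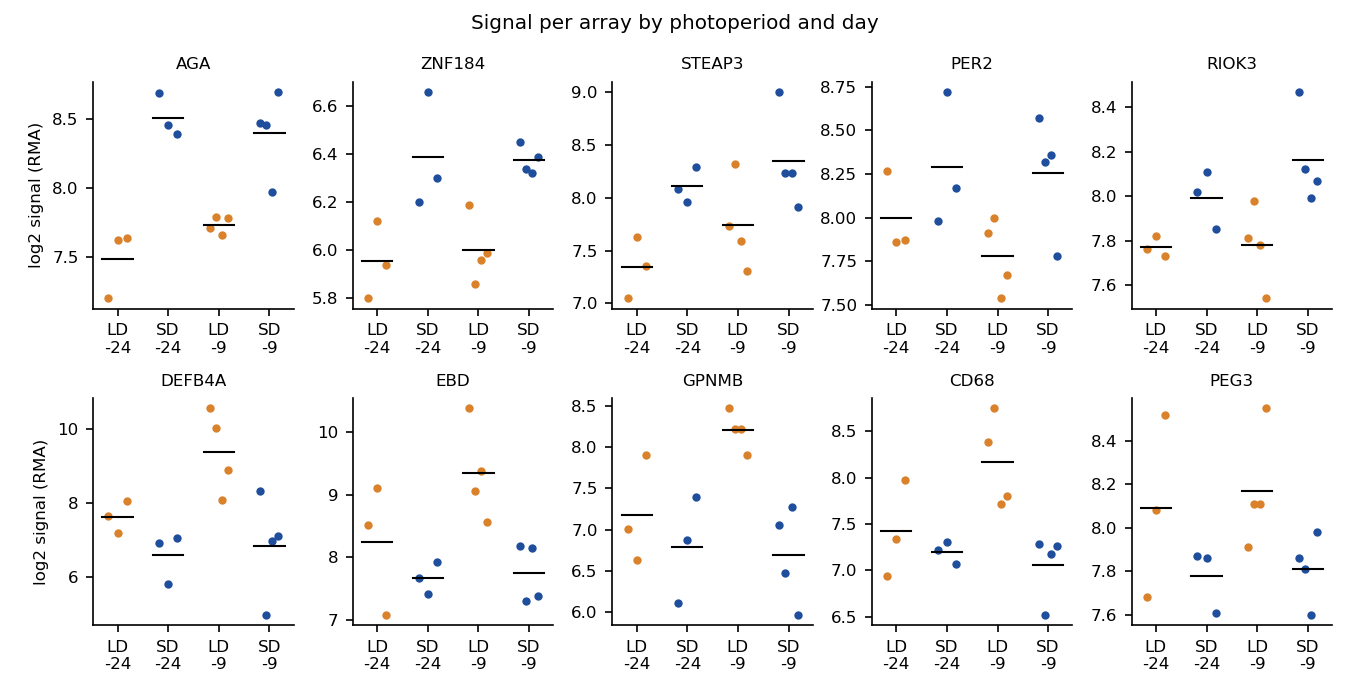
Log2 signal of 10 genes on every array, in columns for LD (orange) and SD (blue) at day -24 and day -9, with a horizontal bar at the mean of each group; each panel has its own vertical scale. AGA and ZNF184 show SD points above all LD points, and DEFB4A, EBD, GPNMB and CD68 have their highest group mean in LD at day -9.

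Several further genes of small p were higher in SD, none past the threshold. STEAP3 encodes a reductase that turns ferric into ferrous iron. It read 8.08, 7.96 and 8.29 in SD against 7.05, 7.63 and 7.35 in LD at day -24, and 9.0, 8.23, 8.23 and 7.91 in SD against 7.73, 8.32, 7.59 and 7.31 in LD at day -9. The groups were apart at day -24, while at day -9 LD replicate 2 lay among the SD arrays. The difference was 0.67 (SE 0.18), and 0.20 (95% interval -0.15 to 0.56) in its second probe set, which turned to -0.01 without the outlying pair.

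MSRB2, which repairs oxidised methionine in mitochondria, lay at 9.01 to 9.49 in SD, against 8.64 to 9.13 in LD, a difference of 0.32 (SE 0.10). DTWD1 lay at 8.22 to 8.68 in SD, against 8.00 to 8.31 in LD, a difference of 0.26 (SE 0.08). LOC617079 differed by 0.89 (SE 0.26), and by 0.40 in its second probe set. NUDT11, of a family that cleaves nucleoside diphosphates linked to other groups, differed by 0.35 (SE 0.10) at signals no higher than 3.17, and by -0.09 in its second probe set. Iron handling as a list was mixed: of 12 measured genes 3 were higher and 2 lower at both days. The higher count was 1 without SD24-2 or SD9-1, and the lower count was 1 without SD24-2 and 4 without SD9-4.

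Genes of antimicrobial defence leaned lower in SD. Of 35 measured genes of innate defence and the acute phase response, 16 (45.7%) were lower in SD at both days, against 18.4% of all measured genes. Lists of other kinds came close to this share, with 45.5% of adipocyte markers and 44% of milk fat genes, where 27.3% and 16% were higher. In the defence list 1 gene was higher (4 without LD9-1 or LD9-4), with a median difference of -0.27 against 0.00 over all genes. That median was -0.43 without SD9-1, -0.48 without the outlying pair and -0.41 with array weights, but -0.16 without LD9-1 and -0.14 without SD9-2. At an unadjusted p under 0.05 there were 5 genes, all lower, where 1.82% of all measured genes had such a p, 0.743% higher and 1.08% lower. After adjustment over all probe sets 0 passed in limma. The median was -0.01 at day -24 and -0.45 at day -9, so the sizes came mainly from day -9. The mean level of the list, centred on all arrays, ranged from -0.35 to 0.06 in LD and from -0.60 to -0.11 in SD at day -24. At day -9 it ranged from -0.04 to 1.10 in LD and from -0.70 to 0.91 in SD, so the photoperiods overlapped at both days.

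The count of 16 was between 13 and 21 over the refits that leave out 1 array, 17 without the low pair and 18 without the outlying pair. The count of 5 was less steady: 17 without the outlying pair, 14 with array weights, 10 without SD9-1 and 8 without LD9-3. It was 2 without LD9-2 or SD9-3, and 3 without LD24-3, LD9-4, SD9-2, SD9-4 or the low pair. Over all probe sets such a p also became more common in some refits. The 504 became 1030 without the outlying pair and 1552 with array weights, but 513 without SD9-1 and 473 without LD9-3.

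DEFB4A and EBD had the smallest p of the defence list. Beta-defensins are short cationic peptides that kill bacteria and are made by mammary epithelium. DEFB4A read 6.93, 5.82 and 7.05 in SD against 7.65, 7.18 and 8.05 in LD at day -24, and 8.31, 4.99, 6.98 and 7.12 in SD against 10.55, 10.02, 8.07 and 8.90 in LD at day -9. The photoperiods were apart at day -24, and at day -9 SD replicate 1 exceeded LD replicate 3. The difference was -1.89 (SE 0.51, exact permutation p = 0.00429), -1.03 at day -24 and -2.53 at day -9. A second DEFB4A probe set differed by -0.86 (95% interval -2.23 to 0.51), with 0.14 at day -24.

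EBD, an enteric beta-defensin gene, read 7.66, 7.41 and 7.93 in SD against 8.52, 9.11 and 7.08 in LD at day -24, and 8.18, 7.30, 8.14 and 7.38 in SD against 10.38, 9.06, 9.37 and 8.57 in LD at day -9. The groups were apart at day -9 alone, since LD24-3 was the lowest array of all. The difference was -1.16 (SE 0.34, exact permutation p = 0.0114). The other defensin genes, LAP and TAP, differed by -0.88 and -0.43, with 0.13 and 0.42 at day -24 and -1.64 and -1.06 at day -9, so they did not share a sign. Defensin genes are alike in sequence, so signal from 1 of them can reach the probes of another.

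Cytokines and acute phase genes were lower by less certain amounts. IL1B, an inflammatory cytokine gene, lay at 3.83 to 4.25 in SD, against 3.95 to 5.05 in LD, a difference of -0.37 (SE 0.17, exact permutation p = 0.0643) at dim signal. CXCL8, which attracts neutrophils, differed by -0.58 (SE 0.26), with -0.13 at day -24 and -0.92 at day -9. ORM1, an acute phase plasma protein gene, differed by -0.48 (SE 0.21) with opposite signs, 0.04 and -0.87. HP, haptoglobin, which binds free haemoglobin, differed by -1.85 (SE 0.94), with -1.17 and -2.35. LBP, which carries bacterial lipopolysaccharide, differed by -0.69, with -0.71 and -0.68 (SE 0.45). The iron-binding milk protein gene LTF differed by -0.30 (95% interval -0.85 to 0.24).

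Markers of macrophages and of neutrophils leaned lower in SD, as the defence genes did, and mainly at day -9. Of 14 measured markers of macrophages and dendritic cells, 7 (50%) were lower at both days and 0 higher. The median was -0.13, with -0.06 at day -24 and -0.23 at day -9. The share lower at both days among all measured genes was 18.4%. Over the refits without 1 array the 7 stayed between 6 and 9, and the median was -0.06 without LD9-2. The mean level of this list ranged from -0.09 to 0.11 in LD and from -0.08 to 0.00 in SD at day -24, and from -0.04 to 0.63 in LD and from -0.42 to 0.07 in SD at day -9. Of 12 neutrophil markers 6 (50%) were lower at both days and 0 higher, with a median of -0.27 and between 5 and 8 lower over the same refits. By day the neutrophil median was -0.09 at day -24 and -0.42 at day -9. Without LD9-1, LD9-4, SD9-2 or the low pair 2 were higher. The neutrophil median was -0.14 without LD9-1, -0.18 without LD9-4, -0.44 without LD9-2, -0.46 without SD9-1 and -0.43 without the outlying pair. Their mean level ranged from -0.09 to 0.27 in LD and from -0.55 to 0.52 in SD at day -24, and from -0.33 to 0.65 in LD and from -0.74 to 0.34 in SD at day -9. S100A8, S100A9, S100A12, CATHL1 and CATHL2 stand in both the defence list and the neutrophil list, and CD14 and LYZ in both the defence list and the macrophage list. The part of these cells in the defence genes was not tested.

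GPNMB, a membrane glycoprotein gene of macrophages, read 6.11, 6.88 and 7.39 in SD against 7.01, 6.63 and 7.90 in LD at day -24, and 7.06, 6.48, 7.28 and 5.97 in SD against 8.47, 8.22, 8.22 and 7.91 in LD at day -9. The photoperiods overlapped at day -24 and were apart at day -9. The difference was -1.03 (SE 0.29, exact permutation p = 0.01), -0.78 (SE 0.22) in a second probe set and -0.18 (95% interval -0.66 to 0.30) in another, dim one.

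CD68, a lysosomal protein gene of macrophages, read 7.22, 7.31 and 7.07 in SD against 6.94, 7.34 and 7.98 in LD at day -24, and 7.28, 6.52, 7.18 and 7.26 in SD against 8.39, 8.75, 7.72 and 7.80 in LD at day -9. It too was apart at day -9 alone. The difference was -0.73 (SE 0.23), with an unadjusted interaction p of 0.0471 between the days in limma. Another macrophage gene, PLA2G7, differed by -0.44 (SE 0.20) with opposite signs, 0.11 and -0.84. The complement genes C1QA, C1QB and C1QC differed by -0.02, -0.11 and -0.02, each with opposite signs at the 2 days.

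Among neutrophil markers, CXCR1, a receptor for CXCL8, lay at 3.07 to 3.86 in SD, against 3.40 to 5.08 in LD, a difference of -0.55 (SE 0.23, exact permutation p = 0.04) at dim signal. IL1R2, a decoy receptor for interleukin 1, differed by -0.43 (SE 0.21), with -0.43 at each day. S100A8, a calcium-binding protein of neutrophils, lay at 4.03 to 6.75 in SD, against 4.73 to 7.44 in LD, a difference of -0.93 (95% interval -1.98 to 0.12). The killer cell receptor gene KIR3DS1 differed by -0.49 (SE 0.12, exact permutation p = 0.00429), and by -0.31 in a second probe set. KIR3DS1 lay at 2.52 to 3.17 in SD, against 3.03 to 3.48 in LD, which is dim on both sides.

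Genes that fold and export secreted proteins leaned lower in SD by small amounts. Of 34 measured genes of the endoplasmic reticulum folding and secretory pathway, 23 (67.6%) were lower at both days, 2 were higher and 9 differed in opposite directions. Over all measured genes 18.4% were lower and 18% higher at both days. The median was -0.10, with -0.12 at day -24 and -0.05 at day -9, where all measured genes had 0.04 and -0.04. At day -9 the list median was thus close to that of all genes. Below 0 were 30 of the 34 genes at day -24 and 25 at day -9, against 3671 and 5520 of all 9155. The count of 23 lay between 16 and 26 without 1 array, with the lowest count without SD24-2. The median was -0.06 without the low pair. The count was 22 without that pair, 20 without the outlying pair, and 23 with quantile normalisation. The mean level of the list ranged from 0.00 to 0.12 in LD and from -0.22 to 0.08 in SD at day -24, and from -0.05 to 0.13 in LD and from -0.06 to 0.08 in SD at day -9.

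In this list SEC61A1 and HYOU1 had an unadjusted p under 0.05 in limma, as had 1.82% of all measured genes. SEC61A1 forms the channel through which new proteins enter the endoplasmic reticulum. It read 10.43, 9.89 and 10.26 in SD against 10.29, 10.69 and 10.34 in LD at day -24, and 10.37, 10.34, 10.17 and 10.67 in SD against 10.60, 10.50, 10.63 and 10.86 in LD at day -9. The groups overlapped at both days, with a difference of -0.25 at day -24, -0.26 at day -9 and -0.25 over both (SE 0.11, exact permutation p = 0.04).

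HYOU1, a chaperone gene induced by low oxygen, lay at 7.65 to 8.26 in SD, against 7.85 to 8.64 in LD, a difference of -0.33 (SE 0.15, exact permutation p = 0.0571). Its other probe sets differed by -0.09, -0.09, -0.25 and -0.07. This count of 2 lower genes was 0 without LD24-2, LD9-3, SD24-2 or the low pair. It was 1 without LD24-3, LD9-4, SD9-1, SD9-2 or SD9-3, 3 without SD24-3, SD9-4 or the outlying pair, and 4 with array weights. Without LD9-3, SD24-3 or SD9-3 there was also 1 higher gene at such a p. The 504 probe sets at such a p became 692 without SD24-3, 705 without SD9-4, 1030 without the outlying pair and 1552 with array weights. The co-chaperone gene DNAJC3 differed by -0.24, the disulfide isomerase gene PDIA4 by -0.20 and the main chaperone gene HSPA5 by -0.08, with standard errors of 0.13, 0.11 and 0.10. ERO1A, which oxidises the disulfide isomerases, leaned the other way with 0.18 at each day (SE 0.09). UBE2J1, a ubiquitin-conjugating enzyme of protein quality control at the same membrane, is not on the list. It lay at 8.50 to 8.78 in SD, against 8.75 to 9.13 in LD, a difference of -0.26 (SE 0.08, exact permutation p = 0.00286).

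No milk gene had an unadjusted p under 0.05 in limma. Of 12 measured milk protein genes 4 were lower and 1 higher at both days, and the median was 0.00. The lower count was 8 without LD9-2 or SD9-1 and 2 without SD9-2. The higher count was 5 without LD24-1, 4 without SD24-3 and 2 without LD24-2. CSN2 differed by -0.03 (95% interval -0.24 to 0.18) and LALBA, the lactose synthase subunit alpha-lactalbumin, by 0.00 (95% interval -0.48 to 0.47), each with opposite signs at the 2 days.

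The alpha-S2-casein gene CSN1S2 lay at 11.52 to 12.89 in SD, against 12.31 to 12.84 in LD, a difference of -0.34 (95% interval -0.74 to 0.07). The membrane mucin gene MUC1 differed by -0.67 with a wide interval of -1.70 to 0.37, and by -0.41 without SD9-2. In milk fat synthesis and secretion 11 of 25 genes were lower and 4 higher at both days, with a median of -0.04, and the 11 became 4 without SD24-2 and 6 without LD9-3. XDH, which coats the milk fat globule, differed by -0.14 (95% interval -0.34 to 0.07), the lipogenic regulator SREBF1 by -0.24 (95% interval -0.65 to 0.17) and the fatty acid transporter CD36 by -0.18 (95% interval -0.52 to 0.16).

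**Figure D3:**
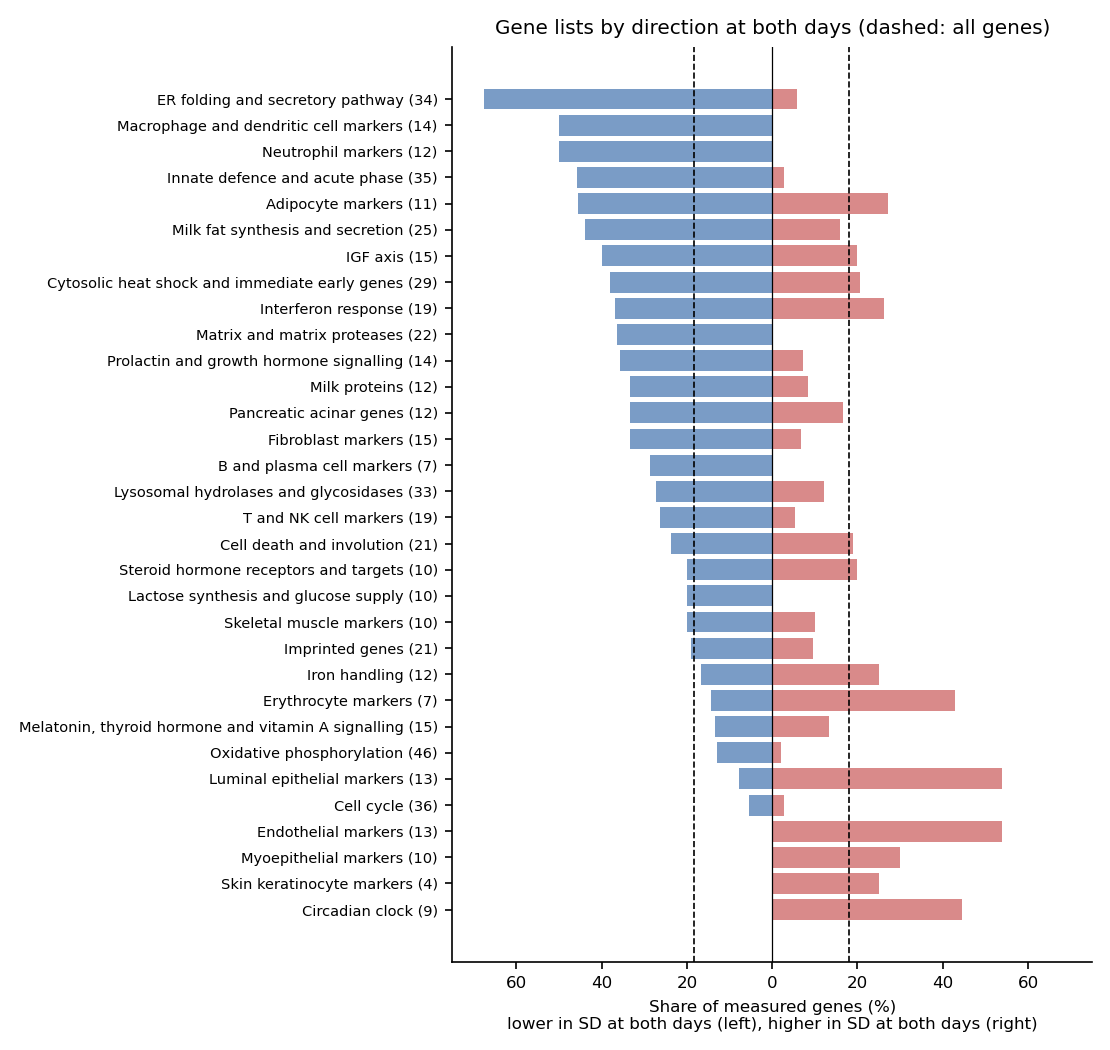
Share of the measured genes of each of 32 lists that were lower in SD at both days (bars to the left) or higher at both days (bars to the right), with the number of measured genes in brackets; dashed lines mark 18.4% and 18%, the shares over all 9155 genes. The longest bar to the left is the folding and secretory list at 67.6%, and cell cycle and oxidative phosphorylation have short bars on both sides because most of their genes differed in opposite directions at the 2 days.

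No gene of the prolactin pathway had an unadjusted p under 0.05 in limma. Prolactin acts through its receptor PRLR and the STAT5 transcription factors, and SOCS and CISH proteins end the signal. PRLR read 9.91, 9.78 and 8.59 in SD against 10.11, 10.20 and 9.71 in LD at day -24, and from 9.77 to 10.38 in SD against 9.76, 9.80, 10.23 and 8.49 in LD at day -9. The lowest array of each day is 1 of the low pair, and the PRLR probe set is among the 280. The difference was 0.01 (95% interval -0.62 to 0.63), -0.58 at day -24 and 0.45 at day -9, and -0.02 without that pair.

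Of 14 measured genes of prolactin and growth hormone signalling, 5 were lower and 1 higher at both days, and the 5 became 3 without SD9-2 or SD9-3 or without the outlying pair. SOCS2, a brake on growth hormone signalling, differed by -0.20 (95% interval -0.43 to 0.03), CISH by -0.11, STAT5B by -0.12 with opposite signs, and the growth hormone receptor GHR by 0.24 (SE 0.34). In the IGF axis, which relays growth hormone action, 6 of 15 genes were lower and 3 higher at both days. The lower count was 3 without LD24-3 and the higher count 1 without SD24-1. IGFALS, which holds IGF in its plasma complex, differed by -0.22 (SE 0.10, exact permutation p = 0.0429), and by -0.02 in a second probe set. IGF1 differed by -0.31 (95% interval -1.08 to 0.46) in a probe set that is among the 280, and by -0.18, -0.16 and -0.09 in its others. The value of the first was -0.06 without SD24-3 and -0.61 without LD9-4.

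Among 9 measured clock genes PER2 had the smallest p. PER2 represses its own transcription in the daily clock of every cell. It read 7.98, 8.72 and 8.17 in SD against 8.27, 7.86 and 7.87 in LD at day -24, and 8.57, 8.32, 8.36 and 7.78 in SD against 7.91, 8.00, 7.54 and 7.67 in LD at day -9. The groups overlapped at both days, through LD replicate 1 at day -24, which exceeded 2 SD arrays, and SD replicate 4 at day -9. The difference was 0.40 (SE 0.15, exact permutation p = 0.03), and 0.36 (95% interval 0.03 to 0.68) in its second probe set. Of 9 measured clock genes 4 were higher and 0 lower at both days, with a median of 0.12.

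The clock count of 4 was 2 without SD24-2, and 2 were lower without LD24-1. The clock median was 0.06 without SD9-4. CSNK1E, HLF and NR1D1 made up the 4 with PER2, at 0.19, 0.14 and 0.11. Lights came on at the same hour in both photoperiods and went off earlier in SD, and the hours of day at which the biopsies were taken are not given in the sources used here. In melatonin, thyroid hormone and vitamin A signalling 2 of 15 genes were higher and 2 lower at both days. AANAT, the enzyme that sets melatonin synthesis, differed by -0.11 (95% interval -0.30 to 0.07) at dim signal. In steroid hormone action 2 of 10 genes were higher and 2 lower. Of these HSD11B2, which inactivates cortisol, differed by 0.47 (SE 0.22, exact permutation p = 0.0571), from 4.74 to 6.46 in SD and from 4.23 to 5.07 in LD, and the progesterone receptor PGR by -0.20 (95% interval -0.62 to 0.22). HSD11B2 differed by 0.28 without SD24-3, and PGR by -0.02 without LD24-1. The counts of these last lists lay between 0 and 5 over the refits without 1 array.

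Matrix genes leaned lower, with 8 of 22 measured genes of the matrix and its proteases lower at both days and 0 higher, and a median of -0.10. These 8 are 36.4% of the list, against 18.4% of all measured genes. Such a share was not particular to matrix. It was 45.5% for adipocyte markers, 44% for milk fat, 40% for the IGF axis and 36.8% for interferon response genes. For heat shock and immediate early genes it was 37.9%. Each of these other lists also had genes higher at both days. Over the 32 lists the share lower ran from 0% to 67.6%. The 8 stayed between 6 and 11 without 1 array, while the higher count was 4 without SD24-3, 3 without LD9-3 and 2 without SD9-4 or the low pair. The median was -0.05 without LD9-3, SD24-3 or SD9-1. MMP19, a matrix protease gene, lay at 7.05 to 7.82 in SD, against 7.44 to 8.58 in LD, a difference of -0.49 (SE 0.17, exact permutation p = 0.0243), most of it at day -9 (-0.76, against -0.13 at day -24). A second MMP19 probe set, which was dim, differed by 0.05 (95% interval -0.13 to 0.22). MMP2, another matrix protease gene, differed by -0.23 (SE 0.12) with -0.22 and -0.25. TGFB3, a growth factor gene of the involuting gland, differed by -0.56 (SE 0.21, exact permutation p = 0.0414), with -0.08 and -0.91.

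OLFML1, SRPX and CPXM1 were lower too, each with limma's adjusted p at 1. OLFML1 lay at 6.03 to 6.52 in SD, against 6.19 to 7.08 in LD, a difference of -0.48 (SE 0.14), and of -0.39 in a second probe set. SRPX lay at 7.32 to 8.20 in SD, against 7.96 to 8.78 in LD, a difference of -0.56 (SE 0.17). CPXM1, a carboxypeptidase family gene, differed by -0.47 (SE 0.15), and by -0.34 and -0.23 in its other probe sets. Fibroblast markers, the cells that make most matrix, had 5 of 15 genes lower and 1 higher. The 5 became 10 without SD24-2, 1 without SD24-3 or the low pair and 3 without LD24-3, and the mean level of the list ranged from -0.20 to 0.48 in LD and from -0.29 to 0.18 in SD over both days.

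The imprinted gene PEG3, a zinc finger transcription factor expressed from the paternal copy, read 7.87, 7.86 and 7.61 in SD against 7.68, 8.08 and 8.52 in LD at day -24. At day -9 it read 7.86, 7.81, 7.60 and 7.98 in SD against 7.91, 8.11, 8.11 and 8.55 in LD. The difference was -0.34 (SE 0.13, exact permutation p = 0.0286), and -0.49, -0.35, -0.01 and 0.00 in its other probe sets. Imprinted genes as a list gave 4 of 21 lower and 2 higher at both days. The 4 became 9 without LD24-1, and the 2 became 5 without LD24-1 or SD9-1 and 1 without LD9-2.

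Among further genes of small p that were lower in SD, GLRX5, which helps to build iron-sulfur clusters, lay at 7.25 to 8.52 in SD, against 8.19 to 8.86 in LD, a difference of -0.64 (SE 0.19). FBP1, an enzyme of glucose synthesis, differed by -0.41 (SE 0.12), with -0.18 and -0.58. NPL, which splits sialic acid, differed by -0.59 (SE 0.16) at signals no higher than 4.01. G0S2, an inhibitor of fat breakdown, lay at 7.58 to 9.07 in SD, against 8.06 to 9.66 in LD, a difference of -0.70 (SE 0.26, exact permutation p = 0.0343). ABO, the blood group transferase gene, differed by -0.57 (SE 0.15), but by 0.28 and 0.05 in its other probe sets. TMEM183A differed by -0.91 (SE 0.27) in 1 probe set and by 0.02, 0.02 and -0.06 in its others.

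Adipocyte markers, to which G0S2 belongs, had 5 of 11 genes lower and 3 higher at both days, and the 5 became 3 without SD24-2. ADIPOQ, the hormone of fat cells, differed by -0.20 (95% interval -0.52 to 0.11) at dim signal. Epithelial and vessel markers leaned higher in SD, where 18% of all measured genes were higher at both days. Of 13 luminal markers 7 were higher and 1 lower, of 10 myoepithelial markers 3 were higher and 0 lower, and of 13 endothelial markers 7 were higher and 0 lower, with medians of 0.07, 0.06 and 0.11. The luminal count was 2 without SD9-1 and 4 without LD9-3, and without the outlying pair 2 were higher and 5 lower. The myoepithelial count was 1 without LD24-1, 5 without LD24-3 and 6 without SD24-1, and without the outlying pair 1 was higher and 5 were lower. The endothelial count was 4 without LD9-2 or the outlying pair, and without the low pair 5 were higher and 3 lower. Without the outlying pair the medians of these lists were -0.02, -0.08 and 0.02. EPCAM differed by 0.12 (95% interval -0.10 to 0.34) and the vessel marker EMCN by 0.20 (95% interval -0.05 to 0.44).

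Cell cycle genes showed how far the days can differ. Of 36 measured genes only PCNA was higher at both days, and 2, MAD2L1 and CCNE1, were lower, while 33 had opposite signs. The median was 0.38 at day -24 and -0.40 at day -9. The list's mean level was -1.50 on SD9-1, the lowest of any array. Without that array 13 genes were higher at both days. The 2 lower genes became 7 without SD24-3, 6 without LD24-1, 4 without SD24-1 and 1 without SD24-2 or SD9-1. MAD2L1, of the spindle checkpoint, differed by -0.62 (SE 0.28, exact permutation p = 0.0657), with -0.05 and -1.04, and by -0.39 without SD9-1. Oxidative phosphorylation gave opposite signs in 39 of 46 genes, with medians of 0.09 and -0.12. Its count of 6 lower genes became 22 without SD24-3, 19 without LD24-1, 13 without SD24-1 and 1 without SD24-2, and its single higher gene became 8 without SD9-1. The test of the interaction itself, over all probe sets, called 0 in limma (0%), with 997 (4.15%) at an unadjusted p under 0.05. The 997 became 430 without SD24-3 and 1728 without SD24-2.

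The largest shared differences belonged to genes that were on or off array by array. Genes of the bovine major histocompatibility complex, named BOLA, present peptides to T cells, and their DQ members vary in number and sequence between cattle. Of 22 BOLA probe sets for 14 genes, 17 had the same sign at both days, 11 higher and 6 lower in SD. An unadjusted limma p under 0.05 was found in 10. Over all probe sets these shares were 38.4% and 2.1%. Several probe sets of BOLA-DQA1, BOLA-DQA2 and BOLA-DQB1 were low on the same arrays, LD24-3, LD9-2 and LD9-4, so the counts are not of separate members. At least 1 log2 unit at both days was reached by 11 of them, and by 4 without LD24-3. The differences ran from -4.98 to 2.90, so probe sets of 1 gene complex pointed in opposite directions.

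BOLA-DQA5 read 5.50, 2.56 and 3.23 in SD against 5.02, 11.19 and 11.10 in LD at day -24, and 2.69, 2.71, 3.52 and 8.11 in SD against 2.49, 11.67, 10.93 and 10.83 in LD at day -9. The LD arrays were high except replicate 1 of either day, and the SD arrays low except replicate 4 of day -9. The difference was -4.98 (SE 1.47, exact permutation p = 0.0186). BOLA-DQB followed the same arrays, with 3.62 and 4.09 in LD replicate 1, between 9.66 and 11.07 in the other LD arrays and between 3.65 and 6.82 in SD, a difference of -3.92 (SE 1.14).

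BOLA-DQA1 ran the other way, at 2.90 (SE 1.05). Its first probe set lay between 8.72 and 10.88 in SD, and in LD at 9.72, 9.53 and 4.44 at day -24 and at 9.28, 2.99, 9.02 and 4.15 at day -9. The SD arrays were uniformly high, and 3 of 7 LD arrays were low. BOLA-DQB1 had probe sets at -0.65 (SE 0.18), -1.52, 2.07, 2.18 and 2.33. BOLA-DRA, the alpha chain of the DR molecules, differed by 0.00 (95% interval -0.18 to 0.18), and BOLA-DMA and BOLA-DMB, which load peptides, by 0.01 and -0.07. Whether the alleles of the animals set the DQ signals was not tested.

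PRSS2, a trypsinogen gene known from the pancreas, read 8.72, 8.71 and 4.00 in SD against 4.24, 3.91 and 3.67 in LD at day -24, and 9.09, 8.84, 4.28 and 8.34 in SD against 5.91, 3.55, 4.35 and 3.93 in LD at day -9. All SD arrays were high except replicate 3 of either day, which lay within the LD range. The difference was 3.2 (SE 0.83, exact permutation p = 0.0114), 3.2 at each day. Of 12 measured genes of pancreatic acinar cells PRSS2 and 1 other were higher at both days and 4 were lower, with a median of -0.04. Without LD24-1 these counts were 6 and 1. The elastase gene CELA1 differed by -0.11 and the lipase gene CEL by -0.11, both at dim signal or close to it.

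PEBP4, of the phosphatidylethanolamine-binding protein family, read 2.90, 4.92 and 4.62 in SD against 5.44, 6.48 and 4.39 in LD at day -24, and 3.45, 4.88, 3.62 and 3.69 in SD against 7.28, 4.83, 6.74 and 5.35 in LD at day -9. The groups overlapped at both days, with a difference of -1.78 (SE 0.46). PTI, a trypsin inhibitor gene, lay at 3.97 to 7.13 in SD, against 5.2 to 8.04 in LD, a difference of -1.67 (SE 0.50), and LOC404103, whose probe set shares most of its name with that of PTI, differed by -1.58 and, in a second probe set, by -0.97. LOC100336589 lay at 4.96 to 6.31 in SD, against 6.06 to 7.15 in LD, a difference of -0.88 (SE 0.26), and its other probe sets differed by -0.19 and -0.09. ATP2B1, a calcium pump gene, differed by 1.94 (SE 0.81), with 1.34 and 2.40, and by 0.07 and -0.02 in its other probe sets.

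**Figure D4:**
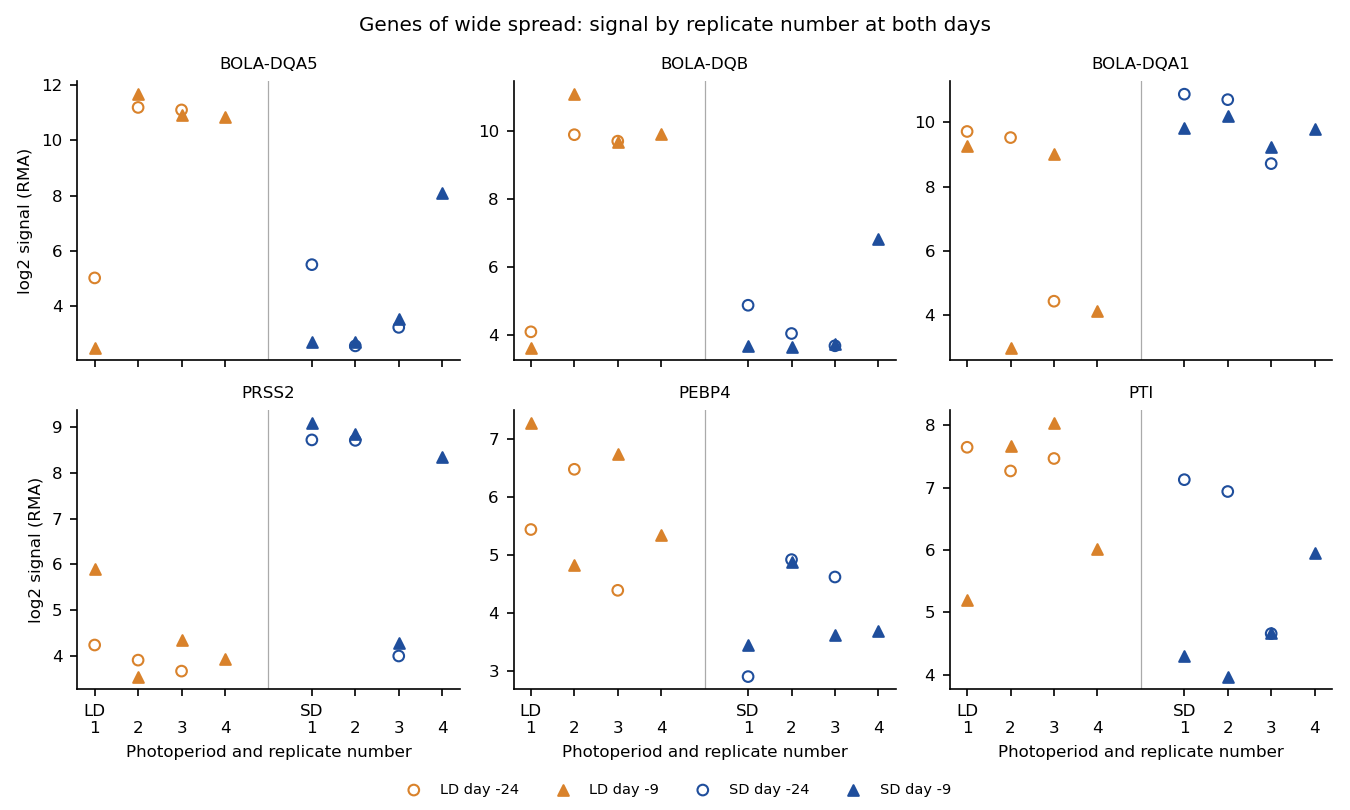
Log2 signal of 6 genes of wide spread by replicate number, LD on the left and SD on the right of each panel, with open circles for day -24 and filled triangles for day -9; each panel has its own vertical scale. BOLA-DQA5 and BOLA-DQB are low in LD replicate 1 at both days, and PRSS2 is low in SD replicate 3 at both days. Other numbers differ between the days: BOLA-DQA1 is 4.44 and 9.02 in LD replicate 3 at day -24 and day -9, and 9.53 and 2.99 in LD replicate 2.

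Interferon response genes were mixed, with 7 of 19 lower and 5 higher at both days. The 7 became 4 without LD24-3, LD9-2 or SD24-2, and the 5 became 3 without LD24-1, LD9-3 or SD9-3. HERC5, which attaches the ubiquitin-like protein ISG15 to its targets, differed by 0.35 (SE 0.15, exact permutation p = 0.0529), from 6.55 to 7.27 in SD and from 6.27 to 7.31 in LD. OAS1X, which senses double-stranded RNA, differed by 0.76 (SE 0.36, exact permutation p = 0.08), with 0.37 and 1.06, and IFIT2 by -0.21 (95% interval -0.48 to 0.06). Markers of T and natural killer cells had 5 of 19 genes lower and 1 higher. Without the outlying pair 1 was lower and 7 higher, and with array weights 4 were lower and 7 higher. The higher count was also 5 without SD9-1, 4 without LD9-4 or the low pair and 3 without LD9-2 or SD9-4. Those of B and plasma cells had 2 of 7 lower and 0 higher. Without 1 array the lower counts of these lists ran from 2 (T and natural killer cells, without LD24-1 or LD9-2) to 8 (without LD24-2), and from 2 to 4 for B and plasma cells. The killer protein gene PRF1 differed by -0.39 (95% interval -0.88 to 0.09) and the antibody heavy chain gene IGHM by -0.35 (95% interval -0.87 to 0.18).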

How the data were processed

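Mammary biopsies of 14 samples were hybridised to Affymetrix bovine arrays, from RNA with an integrity number above 7.0 and 2 µg of total RNA per sample, per the labels' protocols. The deposited values are log2 signals, 1 per probe set and array, summarised by RMA per the submitters' processing notes; the version is not given in the sources used here. Arrays have no read depth, and their number limits the precision.

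The 112 control probe sets were left out, which leaves 24016. Of these, 13292 have 1 gene symbol in the platform annotation, 86 several and 10638 none. No filter on low values was used. In R 4.3.3, limma 3.58.1 fitted day and photoperiod over all 14 arrays, without an intensity trend, two-sided, with Benjamini-Hochberg adjustment over 24016 and a threshold of 0.05. Group means from the same arrays gave the difference at each day and the interaction. Exact permutation, two-sided, exchanged photoperiods within days. On simulated data of the same layout, with 100 probe sets changed at each fold, 83% of 2-fold and 97% of 4-fold changes were recovered, with 9 false calls.

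For lists, each gene was represented by its brightest probe set on average. Named genes are the 30 probe sets with 1 symbol of smallest p and equal sign at both days, those without overlap at both days, up to 3 of smallest p per list, and 10 genes always given. Other list members and large differences were added after their values were seen. The members and lists were chosen with earlier results of these data known. Alternatives were other models, variance priors, array weights, scalings, filters and omissions of arrays.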

Additional observations from a re-analysis of the deposited data

Results flagged for a closer look

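In the groups of 4 arrays at day -9, the highest or lowest array of a named probe set was compared with the others of its group by Dixon's ratio. Of 238 such comparisons 25 had an array beyond the critical ratio for 4 values at the 95% level, and chance gives this in about 1 of 20 groups. The values below are the log2 signals of the arrays that lay apart.

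Genes on or off array by array gave BOLA-DQA5 at 2.49 in LD replicate 1 and at 8.11 in SD replicate 4, BOLA-DQB at 6.82 in SD replicate 4 and PRSS2 at 4.28 in SD replicate 3. PEBP4 was at 4.88 in SD replicate 2, and TMEM183A at 9.14 in LD replicate 2 and at 10.61 in SD replicate 4.

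On SD replicate 1, which lay apart on principal components, 6 genes stood out: HYOU1 at 7.65, MMP2 at 10.31, G0S2 at 7.58, COL1A2 at 11.21 and IGF1 at 5.30 were the lowest of their group, and LTF at 13.38 the highest. On SD replicate 2, CD68 was at 6.52, XDH at 11.73 and PAPPA at 3.34, each the lowest. On SD replicate 4, SLC35A2 was the highest at 8.71 and EMCN the lowest at 9.91.

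On LD replicate 4, 1 of the pair of low arrays, GPNMB was at 5.50 in its second probe set, ERG at 7.04 and IGF1 at 4.33, each the lowest, and TNNC2 the highest at 4.86. MUC1 was at 10.49 in LD replicate 3, XDH at 11.89 in LD replicate 2 and NDUFB5 at 9.39 in LD replicate 1.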

How the results depend on the processing

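Calls were 0 for the shared difference in the main model and every alternative except 1 (AGA, 0.91) without SD day -9 replicate 3, and 0 for the interaction in every alternative that holds both days. Probe sets at an unadjusted p under 0.05, 504 in the main model, were 1552 with array weights, 1030 without the pair of arrays apart on principal components, 932 at day -9 alone, 215 without the dimmer 50% of probe sets and 166 by 1 probe set per gene, and 408 to 1224 without 1 array. Same signs, 9222, were 4079 without the dimmer 50% and 3334 by 1 probe set per gene (fewer were tested in both), and 8351 to 12066 without 1 array. No overlap at both days, 17, was 74 without the pair of low arrays, 98 without the other pair, 9 without the dimmer 50%, 2 by 1 probe set per gene, and 24 to 57 without 1 array, where fewer arrays make separation easier. Interaction p under 0.05, 997, were 469 without the pair of low arrays, 520 without the dimmer 50%, 339 by 1 probe set per gene, and 430 to 1728 without 1 array. Unless a reason is given, the cause was not tested.

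The labels do not say whether a replicate number pairs SD with LD, and the values do not settle it. Correlations of deviations within a day ran from -0.131 to 0.304 for equal numbers and from -0.352 to 0.228 for unequal numbers. With the replicate block 618 probe sets had an unadjusted limma p under 0.05 and 0 were called. Across days, equal numbers within a photoperiod gave correlations from -0.313 to 0.331. With equal numbers at both days as a random block the count was 424. The highest correlation of a day -24 array fell on its own number for 3 of 6 and on another number for the other 3, so this block may not join arrays of 1 cow.

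Directions turned in 9 of 119 named probe sets. With array weights, CCNE1 was 0.01, MYH11 -0.09, PRLR -0.03, CSN2 0.00 and LALBA 0.05. Without the pair of low arrays PCNA was -0.01, MYH11 -0.01, PRLR -0.02 and LALBA 0.02. Without the other pair CCNE1 was 0.03, the second STEAP3 probe set -0.01, MYH11 -0.08 and LALBA 0.08. At day -9 alone the second AGA probe set was -0.03, CSN2 0.07 and LALBA 0.04. PRLR was -0.58 at day -24 alone and -0.07 with days weighted equally, and LALBA 0.02 with quantile normalisation. Without 1 array SLC2A8 ran from -0.17 to 0.04, PCNA from -0.03 to 0.12, MYH11 from -0.01 to 0.11, PRLR from -0.22 to 0.22, CSN2 from -0.07 to 0.03 and LALBA from -0.13 to 0.15.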
